A study of Rattus norvegicus with 12 samples.

Results

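The genes described here reabsorb sodium in the distal nephron of the rat kidney, from the thick ascending limb to the collecting duct, or regulate that transport. They are the epithelial sodium channel subunits Scnn1a, Scnn1b and Scnn1g, the transporters and channel Slc12a1, Slc12a3 and Kcnj1, and the regulators Wnk4, Sgk1, Nedd4l and Hsd11b2. Their members were all probe sets on an Affymetrix rat expression array that carry 1 of these symbols and no other, whatever their values. The rule found 11 probe sets of 9 of the 10 genes, among 31042 probe sets that are not controls. Scnn1a and Scnn1g had 2 probe sets each. Wnk4 is represented only on 2 probe sets that also carry other symbols, so no value is given for it.

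The study asked about susceptibility and resistance to polycystic kidney disease, and kidneys came from 4 rat strains at 30 days of age, all fed the 5LOD diet. PCK is a polycystic strain that arose from Sprague Dawley stock and has mutant Pkhd1, which in humans underlies the recessive form of polycystic kidney disease. SD is Sprague Dawley. FHH.Pkhd1, or FHH.PCK-(D9Rat35-D9Rat70)/Mcwi, is a congenic strain in which a stretch of PCK chromosome 9 that includes Pkhd1 was placed on the FHH background. FHH is the Fawn Hooded Hypertensive strain. RNA of both kidneys of 6 animals was pooled per strain, and each pool was hybridized to 3 arrays, for 12 arrays in all. The arrays of a strain are thus technical replicates of 1 pool: every standard error (SE), 95% interval and p-value below sets pools against the spread between arrays and says nothing about the spread between animals. The congenic stretch also carries the other genes that lie between its markers, PCK and SD may differ elsewhere in the genome, and the sources used here do not give the sex of the animals.

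As background, sodium that escapes the proximal tubule is taken up along successive stretches of the nephron. In the thick limb the cotransporter Slc12a1 (NKCC2) brings in sodium, potassium and chloride, and the channel Kcnj1 (ROMK) returns potassium to the lumen. In the distal convoluted tubule the thiazide-sensitive cotransporter Slc12a3 (NCC) takes over, and in the principal cells of the connecting tubule and collecting duct the channel ENaC, built of the subunits encoded by Scnn1a, Scnn1b and Scnn1g, sets the final sodium loss under aldosterone. The kinase Wnk4 tunes NCC, the aldosterone-induced kinase Sgk1 restrains the ubiquitin ligase Nedd4l that removes ENaC from the membrane, and Hsd11b2 inactivates glucocorticoids so that the mineralocorticoid receptor answers to aldosterone.

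None of the 10 genes lies on chromosome 9, in the RefSeq annotation of the GRCr8 assembly, so none lies within the congenic stretch. Scnn1b and Scnn1g are neighbours on chromosome 1 with 0 annotated genes between them. Of the others, Sgk1 is on chromosome 1, Slc12a1 on 3, Scnn1a on 4, Kcnj1 on 8, Wnk4 on 10, Nedd4l on 18, and Slc12a3 and Hsd11b2 on 19. The promoters of this pair are shown because the genes are neighbours and the signals of both were highest in FHH.Pkhd1 and lowest in SD, as given further on. That is not particular to the pair, since it also held for the leading probe sets of Scnn1a, Sgk1 and Hsd11b2. On their brightest probe sets PCK averaged above FHH for Scnn1b and below it for Scnn1g. Each window holds 300 bases, 250 before the start site and 50 after it, from RefSeq on GRCr8, read 5′ to 3′ on the gene's strand. Capitals mark the GC box, GGGCGG on either strand (CCGCCC on the other).
Scnn1b, chr1:185861126-185861425, plus strand: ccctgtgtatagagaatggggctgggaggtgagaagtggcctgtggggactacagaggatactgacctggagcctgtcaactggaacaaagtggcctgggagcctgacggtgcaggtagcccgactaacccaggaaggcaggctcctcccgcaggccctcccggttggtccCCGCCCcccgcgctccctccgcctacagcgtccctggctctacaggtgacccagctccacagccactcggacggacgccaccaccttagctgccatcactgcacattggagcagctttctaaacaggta
Scnn1g, chr1:185735975-185736274, plus strand: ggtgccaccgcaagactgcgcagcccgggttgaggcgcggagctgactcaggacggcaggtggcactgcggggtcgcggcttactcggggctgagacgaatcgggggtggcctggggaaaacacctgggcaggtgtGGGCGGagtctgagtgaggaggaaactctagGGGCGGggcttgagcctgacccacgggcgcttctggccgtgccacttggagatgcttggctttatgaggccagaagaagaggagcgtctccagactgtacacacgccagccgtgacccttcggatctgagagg
The Scnn1b window holds 1 GC box, starting at position -79 from the start site, and the Scnn1g window holds 2, at -114 and -83. GC boxes are in 33.06% of all 33469 promoter windows of the RefSeq table. The corticosteroid receptor half-site, AGAACA on either strand (TGTTCT on the other), is in 20.68% of them, and neither of these 2 windows holds it. Windows were matched for 8 of the 10 genes. Scnn1a and Hsd11b2 had no entry in the table. The letters describe the windows and say nothing of binding, and no binding was measured.

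Values are log2 signals, normalized by the authors. They span 2.38 to 14.41, and the median of an array lay at 6.41 to 6.46. Correlations across probe sets were 0.9973 to 0.9985 between arrays of a pool and 0.9862 to 0.9959 between pools. A probe set was tested where its highest pool mean was at or above 5.75, a detection level set at the 40th percentile of the table, and 19359 probe sets were tested. Of the 11 member probe sets 10 were. The exception was the second probe set of Scnn1a (1368203_at), at 4.85 to 5.34 on the 12 arrays, which has no call and no fold here. A probe set was called where its limma p, adjusted over all 19359, was under 0.05 and its difference at least 1.5-fold (0.58 on the log2 scale). A weaker reading, the adjusted p threshold alone, is given beside it. The 95% intervals are not adjusted. Whether the arrays of pools overlap is given as a description only, without its share over all probe sets. Arrays also stood apart where the threshold was missed, as for Slc12a3 in PCK over SD (limma adjusted p = 0.687). The mean of 24 probe sets for added poly-A control RNAs also differed between pools, at 10.73 to 10.88 in PCK, 10.38 to 10.53 in SD, 9.89 to 10.09 in FHH.Pkhd1 and 11.08 to 11.12 in FHH. The actin 3′ minus 5′ signal, a measure of RNA integrity, was 1.31 to 1.35 in PCK, 1.07 to 1.12 in SD, 1.18 to 1.21 in FHH.Pkhd1 and 1.37 to 1.40 in FHH. The part of either in the differences below was not tested.

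Signals of the ENaC subunits were higher in the kidneys of both strains with the Pkhd1 mutation. The leading probe set of each subunit passed the adjusted p threshold in PCK against SD and in FHH.Pkhd1 against FHH, by 1.28 to 1.41-fold in PCK and by 1.18 to 1.81-fold in FHH.Pkhd1. Only Scnn1a in FHH.Pkhd1 reached 1.5-fold. The thick limb and distal tubule transporters Slc12a1 and Slc12a3 passed in neither comparison. Kcnj1, Sgk1 and Hsd11b2 passed in FHH.Pkhd1 over FHH and not in PCK over SD, and of these the difference between the strain pairs itself passed for Sgk1 alone.

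Scnn1a encodes the alpha subunit, which the channel needs to reach the membrane in quantity and to conduct. Its leading probe set (1387104_at) read 7.49, 7.31 and 7.54 on the PCK arrays, against 6.88, 7.11 and 6.85 on the SD arrays. It read 7.88, 7.72 and 7.91 in FHH.Pkhd1, against 7.02, 6.94 and 6.98 in FHH. In neither pair did the arrays overlap, and SD and FHH arrays lay in the same range. The difference was 0.50 ± 0.08 in PCK over SD (log2 ± SE, n = 3 arrays of 1 pool each, limma adjusted p = 0.000484). In FHH.Pkhd1 over FHH it was 0.85 ± 0.08, a 1.81-fold rise (n = 3 arrays of 1 pool each, limma adjusted p = 1.57e-05). This was the only member called in any comparison. The call rests on 1 of 2 probe sets: the second averaged 5.05 in PCK, 5.00 in SD, 4.99 in FHH.Pkhd1 and 4.92 in FHH, and the mean of both probe sets differed by 0.46 in FHH.Pkhd1 over FHH, short of the fold limit.

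Scnn1b encodes the beta subunit, which with gamma raises the channel's surface expression. Its probe set read 8.77, 8.72 and 8.80 in PCK, against 8.34, 8.37 and 8.25 in SD. In FHH.Pkhd1 it read 8.87, 8.78 and 8.88, against 8.65, 8.65 and 8.53 in FHH. The arrays of each pair stood apart. The PCK signal was 0.44 ± 0.05 higher than that of SD (1.36-fold, limma adjusted p = 3.05e-05), and the FHH.Pkhd1 signal 0.23 ± 0.05 higher than that of FHH (1.18-fold, limma adjusted p = 0.00568).

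Scnn1g encodes the gamma subunit, whose extracellular domain is cleaved by proteases when the channel is activated. Its brighter probe set (1370481_at) read 8.71, 8.81 and 8.70 in PCK, against 8.40, 8.42 and 8.35 in SD. In FHH.Pkhd1 it read 9.06, 9.03 and 9.02, against 8.76, 8.79 and 8.78 in FHH. Here too no array of a mutant pool overlapped its control. The differences were 0.35 ± 0.04 in PCK over SD (1.28-fold, limma adjusted p = 3.19e-05) and 0.26 ± 0.04 in FHH.Pkhd1 over FHH (1.20-fold, limma adjusted p = 0.000748). The second probe set (1387986_at) gave 7.22, 7.04 and 7.05 in PCK, against 7.01, 7.00 and 6.79 in SD, and 7.31, 7.33 and 7.37 in FHH.Pkhd1, against 7.25, 6.99 and 7.05 in FHH. It had the same direction but missed the threshold, at 0.17 ± 0.08 in PCK over SD (limma adjusted p = 0.125) and 0.24 ± 0.08 in FHH.Pkhd1 over FHH (limma adjusted p = 0.0509).

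**Figure D1:**
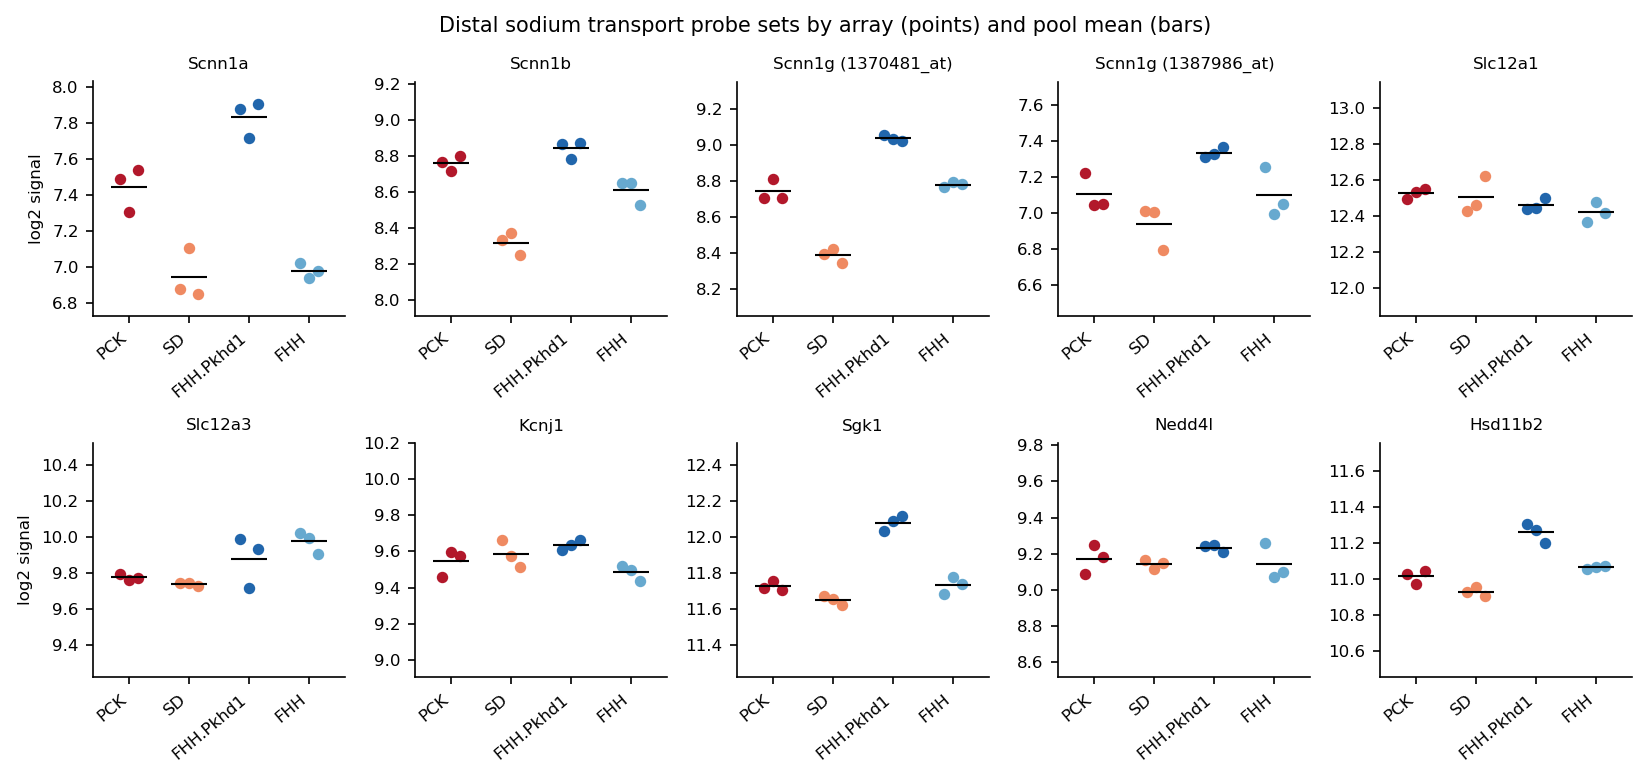
Log2 signal of the 10 tested member probe sets on each of the 12 arrays, with 1 panel per probe set, a point per array and a bar at the mean of each pool. The strains stand in the order PCK, SD, FHH.Pkhd1 and FHH. The Scnn1a arrays of FHH.Pkhd1 lie at 7.72 to 7.91, apart from those of FHH at 6.94 to 7.02, while those of Slc12a1 overlap between neighbouring pools.

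The transporters of the thick limb and distal convoluted tubule differed little. Slc12a1, the target of loop diuretics, read 12.49, 12.53 and 12.55 in PCK, against 12.42, 12.46 and 12.62 in SD, and 12.44, 12.44 and 12.50 in FHH.Pkhd1, against 12.37, 12.48 and 12.41 in FHH. The arrays overlapped in both pairs. The difference was 0.02 in PCK over SD (95% interval -0.09 to 0.14, limma adjusted p = 0.79) and 0.04 in FHH.Pkhd1 over FHH (-0.07 to 0.16, limma adjusted p = 0.62). Both intervals lie well inside the 1.5-fold limit.

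Slc12a3, the target of thiazides, read 9.80, 9.76 and 9.77 in PCK, against 9.74, 9.74 and 9.73 in SD. In FHH.Pkhd1 it read 9.99, 9.72 and 9.93, against 10.02, 9.99 and 9.91 in FHH. The PCK arrays lay just above the SD arrays, and 1 FHH.Pkhd1 array was low. The difference was 0.04 in PCK over SD (95% interval -0.10 to 0.17, limma adjusted p = 0.687) and -0.10 in FHH.Pkhd1 minus FHH (-0.23 to 0.04, limma adjusted p = 0.291).

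Kcnj1, the potassium channel that sustains Slc12a1 and also secretes potassium in the collecting duct, read 9.46, 9.60 and 9.58 in PCK, against 9.66, 9.57 and 9.51 in SD. The difference was -0.04 (95% interval -0.15 to 0.07, limma adjusted p = 0.612). In FHH.Pkhd1 it read 9.61, 9.64 and 9.67, against 9.52, 9.50 and 9.44 in FHH, with no overlap. That difference, 0.15 ± 0.05, was just under the threshold (limma adjusted p = 0.0494) and it missed the threshold when any 1 of the 6 arrays concerned was left out, with an adjusted p of up to 0.164.

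Among the regulators, Sgk1, the kinase that aldosterone induces, read 11.72, 11.76 and 11.70 in PCK, against 11.67, 11.66 and 11.62 in SD. In FHH.Pkhd1 it read 12.03, 12.09 and 12.12, against 11.68, 11.78 and 11.74 in FHH. The FHH.Pkhd1 arrays lay above all others, and the other 3 pools lay close together. The difference was 0.35 ± 0.04 in FHH.Pkhd1 over FHH (1.27-fold, limma adjusted p = 8.17e-05), against 0.08 in PCK over SD (95% interval -0.01 to 0.16, limma adjusted p = 0.163).

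Hsd11b2, the enzyme that shields the mineralocorticoid receptor from glucocorticoids, read 11.03, 10.97 and 11.05 in PCK, against 10.92, 10.95 and 10.90 in SD. In FHH.Pkhd1 it read 11.30, 11.27 and 11.20, against 11.06, 11.06 and 11.07 in FHH. The arrays stood apart in both pairs, by the smallest of margins in PCK. The difference was 0.19 ± 0.04 in FHH.Pkhd1 over FHH (1.14-fold, limma adjusted p = 0.00421) and 0.09 in PCK over SD (95% interval 0.00 to 0.17, limma adjusted p = 0.108).

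Nedd4l, the ligase that marks ENaC for removal, read 9.08, 9.25 and 9.18 in PCK, against 9.16, 9.12 and 9.15 in SD, and 9.24, 9.25 and 9.21 in FHH.Pkhd1, against 9.26, 9.07 and 9.10 in FHH. Its arrays overlapped in both pairs. The difference was 0.03 in PCK over SD (95% interval -0.09 to 0.15, limma adjusted p = 0.74) and 0.09 in FHH.Pkhd1 over FHH (-0.03 to 0.21, limma adjusted p = 0.267).

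Counted over the 10 tested member probe sets, 0 were called in PCK over SD, where 3.49% of all 19359 probe sets were called. There 3 passed the adjusted p threshold alone as higher (the background is 14.6%) and 0 as lower (18.0%). The median member difference was 0.08, and that of all probe sets -0.01. In FHH.Pkhd1 over FHH 1 of 10 was called, where 1.90% of all probe sets were, and 6 passed the adjusted p threshold alone as higher (12.2%) and 0 as lower (8.79%). The median there was 0.21, against 0.02 over all probe sets. In each of these comparisons 9 of 10 member differences were positive. The 10 probe sets share genes and cell types and are not independent of each other.

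**Figure D2:**
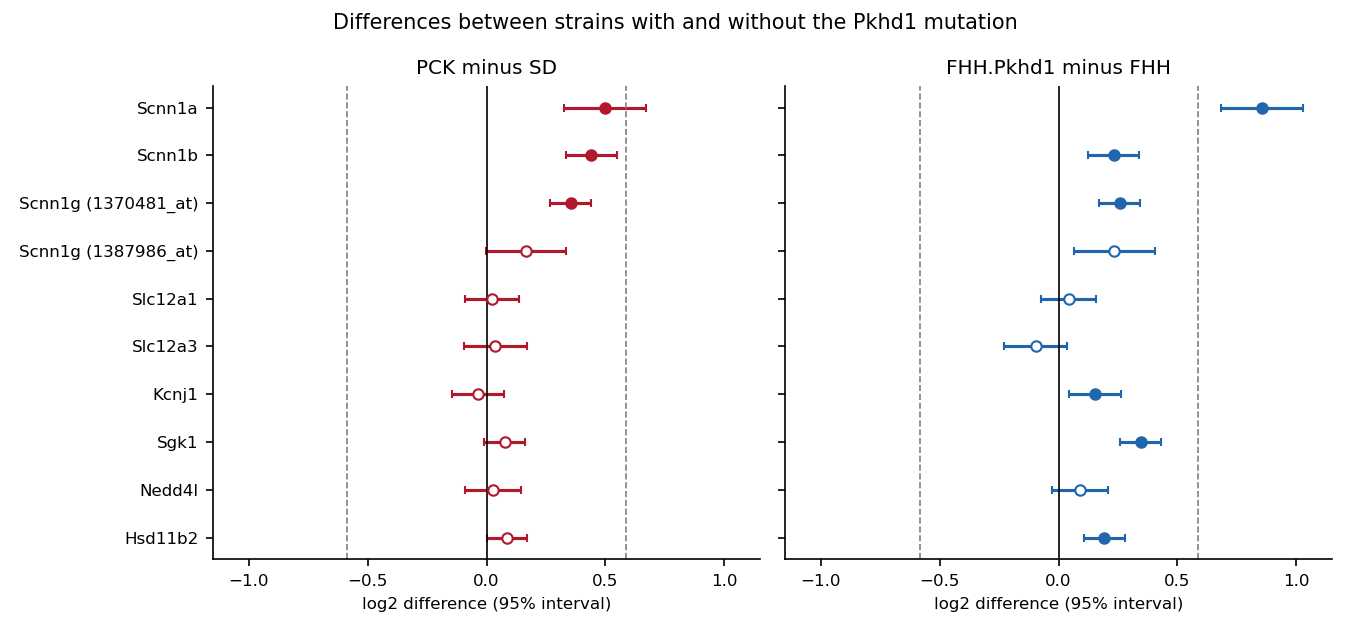
Log2 difference of each tested member probe set in 2 comparisons, PCK minus SD (left) and FHH.Pkhd1 minus FHH (right), with 95% intervals from limma. Filled points pass the adjusted p threshold, open points do not, and dashed lines mark a 1.5-fold difference. Scnn1a in FHH.Pkhd1 minus FHH, at 0.85, is the only point past a dashed line.

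The 2 strain pairs were compared directly by the interaction, the PCK minus SD difference less the FHH.Pkhd1 minus FHH difference. No member reached 1.5-fold, where 6.44% of all probe sets were called. By the adjusted p threshold alone 1 was higher (12.5% of all) and 2 were lower (17.5%). Scnn1b differed more in the PCK pair, by 0.21 ± 0.07 (limma adjusted p = 0.0407). Scnn1a differed more in the FHH.Pkhd1 pair, at -0.36 ± 0.11 (limma adjusted p = 0.0302), as did Sgk1, at -0.27 ± 0.06 (limma adjusted p = 0.00334). The Sgk1 interaction kept its adjusted p under 0.05 without any 1 array, with a highest value of 0.0105. Those of Scnn1a and Scnn1b did not, with highest values of 0.0712 and 0.093. For Scnn1g the interaction was 0.10 (95% interval -0.03 to 0.22, limma adjusted p = 0.221), for Hsd11b2 -0.11 (-0.23 to 0.01, limma adjusted p = 0.17) and for Kcnj1 -0.19 (-0.34 to -0.04, limma adjusted p = 0.0626).

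Across backgrounds, every member that passed the adjusted p threshold was lower in PCK than in FHH.Pkhd1, or lower in SD than in FHH. Each of these comparisons shares its pools with those above. In PCK minus FHH.Pkhd1 0 of 10 were called, where 6.91% of all probe sets were, and 0 passed the adjusted p threshold alone as higher (17.4%) and 5 as lower (34.4%). The 5 probe sets were those of Scnn1a at -0.39 ± 0.08 (limma adjusted p = 0.00156), Scnn1g at -0.30 ± 0.04 (7.53e-05) and -0.23 ± 0.08 (0.0271), Sgk1 at -0.35 ± 0.04 (1.72e-05) and Hsd11b2 at -0.24 ± 0.04 (0.000293). The median over all 10 members was -0.17, against -0.06 over all probe sets. Scnn1b, at -0.08 (95% interval -0.19 to 0.03, limma adjusted p = 0.183), did not pass.

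In SD minus FHH 0 of 10 were called, where 3.72% of all probe sets were, and 0 passed the adjusted p threshold alone as higher (13.2%) and 4 as lower (21.7%). These were Scnn1g at -0.39 ± 0.04 (limma adjusted p = 1.42e-05), Scnn1b at -0.29 ± 0.05 (0.000772), Slc12a3 at -0.24 ± 0.06 (0.0102) and Hsd11b2 at -0.14 ± 0.04 (0.017). The Hsd11b2 difference missed the threshold without SD replicate 3 or FHH replicate 3, at adjusted p values of up to 0.0597. Scnn1a, at -0.03 (95% interval -0.20 to 0.14, limma adjusted p = 0.782), was about level between the 2 pools without the mutation. The median member difference was -0.11, against -0.03 over all probe sets.

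**Figure D3:**
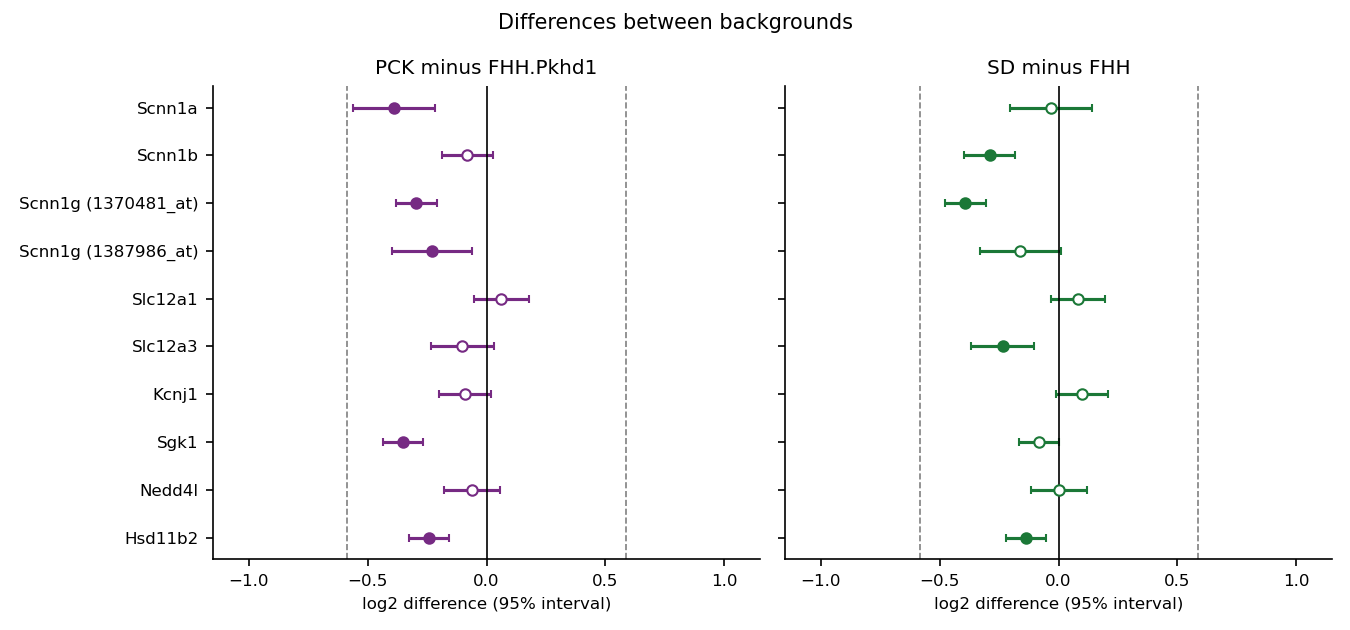
Log2 difference of each tested member probe set in 2 comparisons, PCK minus FHH.Pkhd1 (left) and SD minus FHH (right), with 95% intervals from limma. Filled points pass the adjusted p threshold, open points do not, and dashed lines mark a 1.5-fold difference. No member passes a dashed line, and the lowest values are -0.39 for Scnn1a on the left and -0.39 for Scnn1g on the right.

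The order of the pool means follows from these values. Scnn1a was highest in FHH.Pkhd1, then PCK, and its FHH and SD arrays overlapped. Scnn1b was highest in FHH.Pkhd1 and PCK, whose arrays overlapped, then FHH, then SD. For Scnn1g and Sgk1 FHH.Pkhd1 stood above FHH and PCK, whose arrays overlapped, and SD was lowest. This is the order on the brighter Scnn1g probe set, while on the second the FHH and SD arrays overlapped too. The Hsd11b2 order was FHH.Pkhd1, FHH, PCK and SD, with gaps between pool means of 0.19, 0.05 and 0.09. No arrays of neighbouring pools overlapped there, but PCK minus SD did not pass the adjusted p threshold, and FHH against PCK was not tested. For Slc12a1, Kcnj1 and Nedd4l the arrays of all neighbours in the order overlapped. The range between the highest and lowest pool mean was 0.89 for Scnn1a, 0.65 for Scnn1g, 0.52 for Scnn1b, 0.43 for Sgk1 and 0.33 for Hsd11b2. It was 0.24 for Slc12a3, 0.15 for Kcnj1, 0.10 for Slc12a1 and 0.09 for Nedd4l. The 3 ENaC subunits had the widest ranges of the 9 genes measured, each gene read from its leading probe set. The pool means of the second Scnn1g probe set spanned less, from 6.94 in SD to 7.33 in FHH.Pkhd1.

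Because each strain is 1 pool, the 4 pool means were also fitted with additive terms for Pkhd1 status and background, which leaves 1 residual degree of freedom. The term for Pkhd1 status, 1 value for both strain pairs, was 0.68 for Scnn1a, 0.34 for Scnn1b and 0.31 for Scnn1g on the log2 scale. The unadjusted limma p was 0.00573 for Scnn1a, 0.0274 for Scnn1b and 0.0248 for Scnn1g, and the adjusted p was 0.999 for each. In this fit 3 of the 10 members had an unadjusted p under 0.05, as had 3.65% of all probe sets, and 0 probe sets were called.

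Markers of the principal cell, where ENaC lies, moved with the subunits, beside which they are given here. In whole kidney, fewer cells of a type and less RNA per cell cannot be told apart. Of the 4 principal cell markers other than the members, 3 passed the adjusted p threshold as higher in PCK over SD, with a median of 0.33, and 1 of them was called. These were the vasopressin-regulated water channel Aqp2 (0.54), the basolateral water channel Aqp3 (0.63, called) and the pump regulator Fxyd4 (0.12), while the vasopressin receptor Avpr2 was at 0.09. In FHH.Pkhd1 over FHH all 4 passed and none was called, with a median of 0.32, at 0.29 for Aqp2, 0.25 for Aqp3, 0.34 for Avpr2 and 0.44 for Fxyd4. Their summed signal, as log2, was 13.40 to 13.43 in PCK, against 12.92 to 12.98 in SD, and 13.50 in FHH.Pkhd1, against 13.18 to 13.19 in FHH. The part of these markers in the ENaC differences was not tested.

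A direct description is the mean of the 3 leading ENaC probe sets less the mean of the 4 principal cell markers on each array, which was added after the data were seen. Only its change between pools has a meaning. It was -2.38 to -2.28 in PCK, against -2.49 to -2.34 in SD, so that the arrays overlapped. It was -2.27 to -2.18 in FHH.Pkhd1, against -2.35 to -2.30 in FHH, where they did not. The pool means were -2.34 in PCK and -2.43 in SD, and -2.21 in FHH.Pkhd1 and -2.33 in FHH. Since the markers were themselves higher in both strains with the mutation, subtracting them had to narrow the differences, and nothing is read from that narrowing.

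**Figure D4:**
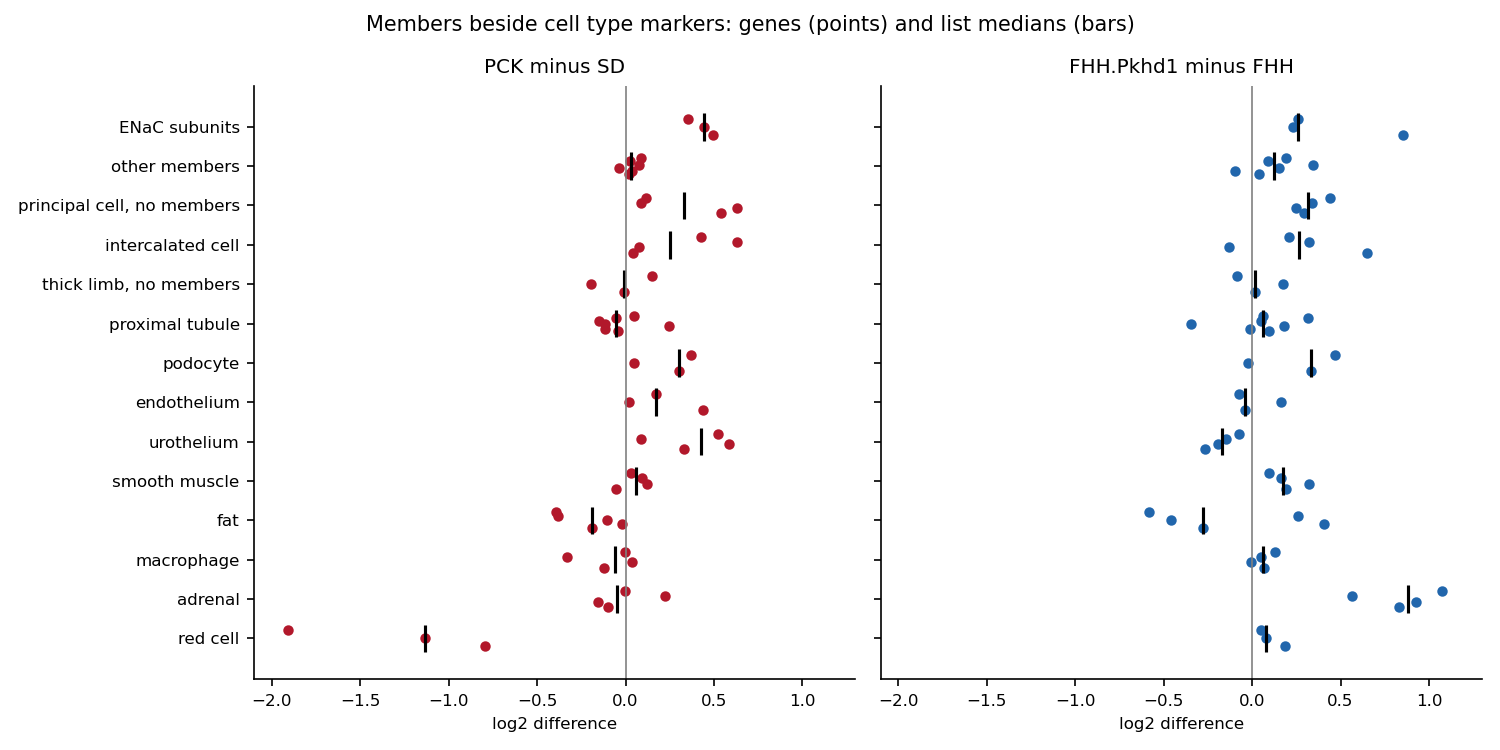
Log2 differences in 2 comparisons, PCK minus SD (left) and FHH.Pkhd1 minus FHH (right), for the ENaC subunits, the other members and the tested markers of each cell type, with a point per gene and a bar at the list's median. The ENaC subunits and principal cell markers lie above 0 on both sides, red cell markers have a median of -1.13 on the left, and adrenal markers a median of 0.88 on the right.

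Markers of other cell types that the samples could hold were read in the same way. Of 4 measured intercalated cell markers, the acid-base cells next to principal cells, 2 passed the adjusted p threshold as higher in PCK over SD and 3 in FHH.Pkhd1 over FHH, with medians of 0.25 and 0.27. The 3 thick limb markers other than the members had medians of -0.01 in PCK over SD and 0.01 in FHH.Pkhd1 over FHH. These medians cover unlike genes: in PCK over SD 1 passed as higher (Ptger3, 0.15) and 1 as lower (Cldn16, -0.19). In FHH.Pkhd1 over FHH 1 passed as higher (Cldn16, 0.17). A wider list of 7 tested thick limb genes had a median of -0.01 in PCK over SD, with 1 higher and 2 lower. In FHH.Pkhd1 over FHH its median was 0.13, with 4 higher and 0 lower. Of the distal convoluted tubule markers other than Slc12a3, Calb1 alone was tested, since Pvalb was below the detection level at 4.33 and no probe set was named for Trpm6. Red cell markers were called lower in PCK than in SD in 3 of 3 genes, with a median of -1.13. All 3 were highest in SD, and SD minus FHH also had 3 of 3 called higher, with a median of 1.21. Their summed signal, as log2, was 13.52 to 13.54 in SD, 12.69 to 12.73 in PCK, 12.73 to 12.84 in FHH.Pkhd1 and 12.59 to 12.63 in FHH. Of 4 tested markers of urothelium, which lines the renal pelvis, 3 passed as higher in PCK over SD with a median of 0.43, while the median was -0.17 in FHH.Pkhd1 over FHH. Podocyte markers had medians of 0.30 and 0.33 in these comparisons, endothelial ones 0.17 and -0.04, and proximal tubule ones -0.05 and 0.06. The part of these cell types in the member differences was not tested.

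Adrenal cortex markers, genes of steroid synthesis in the gland that sits on the kidney, were high in both FHH strains. Their summed signal, as log2, was 7.66 to 7.83 in PCK, against 7.74 to 7.78 in SD, and 10.18 to 10.31 in FHH.Pkhd1, against 9.28 to 9.32 in FHH. Of 4 tested markers 3 were called higher in FHH.Pkhd1 over FHH, Hsd3b1 at 1.07, Cyp11a1 at 0.92 and Star at 0.83, and Cyp21a1 was at 0.56. In PCK minus FHH.Pkhd1 all 4 were called lower. No size is given for this, because Star and Cyp11a1, at 5.50 and 5.61 in PCK, were below the detection level there, and the others, at up to 6.05, were close to it. Cyp11b1, which makes corticosterone in the rat, was below the detection level at 3.94. The tested member probe sets other than those of Slc12a1 and Slc12a3 were also highest in FHH.Pkhd1, and the part of the adrenal signal in them was not tested.

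Genes that act with the members were read from 7 lists with 64 entries, of which 52 were tested. In PCK over SD 2 were called higher and 2 lower, and 18 passed the adjusted p threshold as higher and 10 as lower, with a median of 0.08. In FHH.Pkhd1 over FHH none was called, 19 passed as higher and 3 as lower, with a median of 0.09. In PCK minus FHH.Pkhd1 1 was called higher and 3 lower, with 10 and 26 past the adjusted p threshold and a median of -0.12. In SD minus FHH 1 was called higher and 1 lower, with 9 and 18 past the threshold and a median of -0.05. In the interaction 1 was called higher and 2 lower, with 10 and 11 past the threshold. The share of list genes past the threshold is to be read against the backgrounds given above.

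The proteases that cleave and activate ENaC, and their inhibitors, passed the adjusted p threshold as higher in 6 of 8 genes in PCK over SD, and as lower in 1. The protease Tmprss2 rose to 10.76 in PCK, against 10.16 in SD, a difference of 0.60 ± 0.04 (limma adjusted p = 2.89e-07). The inhibitors on the list did not move as one. Spint1 averaged 8.76 in PCK, against 8.59 in SD, and Spint2 11.91, against 11.74. The serine protease inhibitor Serpine2, protease nexin 1, fell to 8.48 in PCK, against 9.37 in SD, a difference of -0.89 ± 0.06 (limma adjusted p = 2.31e-07). It was at 9.25 in FHH.Pkhd1 and 9.12 in FHH, and its interaction, -1.01 ± 0.08, was called, as was its PCK minus FHH.Pkhd1 difference of -0.77 ± 0.06. In FHH.Pkhd1 over FHH 4 of 8 genes of the list passed as higher and all 8 differences were positive, the largest for Furin, the convertase that cleaves the alpha and gamma subunits, at 0.37 ± 0.05.

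Of the corticosteroid receptors and targets, 3 of 10 passed as higher and 4 as lower in PCK over SD, and 3 as higher and 2 as lower in FHH.Pkhd1 over FHH, with none called. The largest differences there were 0.32 ± 0.03 for Hsd11b1 in PCK over SD and 0.25 ± 0.07 for Usp2 in FHH.Pkhd1 over FHH. Calls came between backgrounds. Hsd11b1, which regenerates active glucocorticoid, was 1.32 ± 0.03 higher in PCK than in FHH.Pkhd1 and 0.80 ± 0.03 higher in SD than in FHH. Usp2, a deubiquitinase that acts on ENaC in mouse kidney cells, fell to 9.03 in PCK, against 9.98 in FHH.Pkhd1, a difference of -0.94 ± 0.07.

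Among genes of calcium and magnesium transport in the distal convoluted tubule, the calcium-binding protein Calb1 fell to 11.59 in PCK, against 12.28 in SD, a difference of -0.68 ± 0.03 (limma adjusted p = 2.53e-08), and stood at 12.38 in FHH.Pkhd1 and 12.26 in FHH. Calb1 was also called at -0.81 ± 0.05 in the interaction and at -0.79 ± 0.03 in PCK minus FHH.Pkhd1. The calcium channel Trpv5 averaged 5.86 in PCK, 5.13 in SD, 5.90 in FHH.Pkhd1 and 5.96 in FHH. Its calls in PCK minus SD, SD minus FHH and the interaction, which are among the counts above, all rest on the SD pool, where it was below the detection level, so no size is given for them. No gene of the list was called in FHH.Pkhd1 over FHH, where the sodium and calcium exchanger Slc8a1 differed most, by 0.19 ± 0.05.

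In the other lists no gene was called in PCK over SD or FHH.Pkhd1 over FHH, and the largest difference of each is given. Among thick limb genes it was Cldn16, a paracellular cation channel protein, at -0.19 ± 0.05 in PCK over SD, and its partner Cldn19 at 0.24 ± 0.04 in FHH.Pkhd1 over FHH. Among genes of the WNK and SPAK kinase cascade, which acts on the cotransporters, it was Klhl2 at 0.23 ± 0.06 in PCK over SD and Klhl3 at 0.27 ± 0.05 in FHH.Pkhd1 over FHH, both adaptors for WNK degradation. For the basolateral pump and potassium channels it was Kcnj16 at 0.12 ± 0.04 and Fxyd4 at 0.44 ± 0.04. In a list of other apical transporters of the nephron, the chloride and bicarbonate exchanger Slc26a4 was at 0.43 ± 0.05 in PCK over SD, and the glucose cotransporter Slc5a2 at -0.35 ± 0.04 in FHH.Pkhd1 minus FHH.

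The genes whose signals were most like those of the 2 most variable members were found by Pearson correlation over the 12 arrays among 10890 genes. Since the arrays come from 4 pools, the coefficient mostly reflects 4 levels and is a description. For Scnn1a they were Ltbr (r = 0.967), Fxr2 (0.965), Cluh (0.953), Kiaa1671 (0.950) and Ccl2 (0.947). For Scnn1g they were Mgat4a (r = 0.991), Abcg1 (0.990), Srpx2 (0.989), Krt19 (0.983) and Ogfod3 (0.982). Krt19, a keratin of ductal epithelia, averaged 9.28 in PCK, 8.57 in SD, 9.77 in FHH.Pkhd1 and 9.29 in FHH, the same order as Scnn1g.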

How the data were processed

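Values were probe set signals of 12 arrays, which the authors deposited as log2 values. The submitters' processing notes name RMA and Partek 6.2. Joint normalization of the arrays is not stated in those sources, and the log2 values were used as deposited. Symbols came from GEO's platform annotation. Of 31099 probe sets, 57 were controls, 20826 had 1 symbol, 436 several and 9780 none, and 20758 matched GRCr8 RefSeq records. All single-symbol probe sets of the 10 genes were kept.

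Probe sets with a highest pool mean at or above the table's 40th percentile (5.75) were fitted with limma 3.58.1 in R 4.3.3, with 1 mean per strain over 12 arrays, eBayes moderation (prior degrees of freedom 3.77, residual 8) and Benjamini and Hochberg adjustment over 19359 probe sets. The number of arrays limits the precision. The procedure was tested on simulated data with noise drawn from the spread between arrays of a pool. That test does not bear on the spread between animals or pools. The genes named were the members, and from each list, by comparison, up to 4 called genes or, with none called, the largest difference, plus 5 correlated genes for each of the 2 most variable members. A list gene was read from its brightest probe set. Members and lists were chosen with earlier results of these data known. Alternatives varied the filter, the probe set per gene, the limit on fold, the variance model, normalization, the replicate number, the unit (array or pool) and the arrays. Deviations of arrays with the same replicate number correlated at -0.33 to 0.35, and the main fit did not pair them. Figures were drawn with matplotlib 3.10.9.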

Additional observations from a re-analysis of the deposited data

Results flagged for a closer look

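For 3 members the differences within the 2 strain pairs were unequal, by a limma test of the difference itself. For Scnn1a the PCK minus SD difference less the FHH.Pkhd1 minus FHH difference was -0.36 on the log2 scale (limma adjusted p = 0.0302). For Scnn1b it was 0.21 (limma adjusted p = 0.0407). For Sgk1 it was -0.27 (limma adjusted p = 0.00334). When single arrays were left out, the adjusted p reached up to 0.0712 for Scnn1a and 0.093 for Scnn1b, past the threshold, and to 0.0105 for Sgk1. Scnn1a and Scnn1b were higher in the mutant pool of both pairs, while the Sgk1 difference passed the threshold in the FHH.Pkhd1 pair alone.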

How the results depend on the processing

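The main limit is that each strain is 1 pool. With 1 mean per pool a single additive term stands for both PCK over SD and FHH.Pkhd1 over FHH, and by that term 0 member probe sets were called and 0 passed the adjusted p threshold. With no fold limit the counts called were 3 in PCK over SD, 6 in FHH.Pkhd1 over FHH, 5 in PCK minus FHH.Pkhd1, 4 in SD minus FHH and 3 in the interaction. The 1 call in FHH.Pkhd1 over FHH became 0 with a 2-fold limit and with the mean of both Scnn1a probe sets. The adjusted p count in PCK over SD became 5 with a limma trend. That of the interaction became 1 with no filter on low values, and was 1 to 3 when single arrays were left out, reaching 1 without FHH replicate 2 and without FHH.Pkhd1 replicate 1. Other counts moved by at most 1.5 times (150 values, against 14 that moved more). No single member difference that passed the threshold changed sign. Of single values 16 gained and 34 lost the threshold. The Scnn1a interaction was -0.18 with the mean of its probe sets and no longer passed. Slc12a3 in PCK minus FHH.Pkhd1 passed without FHH.Pkhd1 replicate 2, at -0.18. The second Scnn1g probe set in FHH.Pkhd1 over FHH passed with a stricter filter, a limma trend, quantile normalization and a replicate block, and in PCK minus FHH.Pkhd1 it lost the threshold with quantile normalization, at -0.16, and without single arrays. Hsd11b2 passed in PCK over SD with a limma trend, at 0.09. The cause of these shifts was not tested. Arrays with the same replicate number correlated in their deviations at -0.33 to 0.35, over 0.1 in 6 of 18 pairs, none of them with PCK. Arrays with different numbers also reached 0.33, for PCK replicate 2 and FHH replicate 1. These values do not settle whether the numbers pair samples, and the main fit did not use them. With the replicate number as a replicate block the counts called were 0 in PCK over SD and 1 in FHH.Pkhd1 over FHH, and the adjusted p counts 3 and 6, while that of the interaction was 2.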
